A study of Mus musculus with 23 samples.

Results

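The comparison described here sets F9 cells after 48 h of all-trans retinoic acid (RA) against the same cells after 24 h of RA, and asks what changed late in the response. F9 is a mouse embryonal carcinoma line, a tumour-derived cell that resembles early embryo cells and turns toward extraembryonic endoderm when RA is given. The members were chosen by their sample titles, as replicates 1 and 2 of the mRNA libraries at each of these times, which gives 4 libraries of the 14 mRNA libraries and of the 23 samples in the series. Cells were seeded on gelatine the day before and received RA at 1e-07 M for 48 h or for 24 h. Other groups serve only to place the late change: RA for 12 h and for 6 h (2 libraries each), untreated cells at 0 h (4 libraries), and cells given the solvent dimethyl sulfoxide (DMSO, 0.001%) for 48 h or for 24 h (1 library each). All groups are the same unmodified line. Whether the replicates are separate cultures is not stated in the labels. The p-values therefore reflect how much these libraries vary, and that variation may be technical.

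RA enters the nucleus and binds the RA receptors, which act in pairs with retinoid X receptors on DNA and change from holding target genes down to turning them on. In F9 cells this sets off a sequence in which direct targets such as Hox genes are followed by the genes of the primitive endoderm. Its derivatives in the embryo are the visceral endoderm, an absorbing and secreting epithelium that makes serum proteins, and the parietal endoderm, a migrating cell that lays down the thick basement membrane known as Reichert's membrane. Because whole cultures were read, a change in the share of cells of a type and a change in RNA per cell cannot be told apart.

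The gene counts summed to 9023685 and 10948932 in the 48 h libraries and to 9165415 and 10722775 in the 24 h libraries, spread over 17088 to 19671 detected genes. Libraries numbered 1 and 2 differed at every time: of the reads that fell on a gene or outside every feature, 57.3 to 59.43% were outside in the set that holds every number 1 library and both DMSO libraries, and 52.51 to 53.77% in the other set. The late change was therefore fitted within replicate numbers. On the principal axis that separates the sets, replicate 1 of 24 h stood apart, at -68.98, while the other number 1 libraries lay between -36.83 and -46.32. Results that rest on any one of the 4 libraries are given with and without it.

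A total of 2573 of 15308 genes tested were called between 48 h and 24 h of RA, which is 16.8%. Of these, 1474 genes (9.63% of those tested) were higher at 48 h and 1099 (7.18%) were lower, at an adjusted p under 0.05 in edgeR's quasi-likelihood test with the replicate number as a block. Increases were larger than decreases. The median absolute log2 change was 1.14 among the genes called higher and 0.71 among those called lower, and 331 of the higher genes (22.5%) but 75 of the lower genes (6.82%) changed by at least 4-fold. Within the pairs, the genes called higher had a median log2 change of 1.14 in the number 1 pair and 1.03 in the number 2 pair, and those called lower had -0.82 and -0.61. Both 48 h libraries lay above both 24 h libraries in 1315 of the 1474 higher genes, and below them in 877 of the 1099 lower genes, against 20.1% and 17.5% of all genes tested. Without the block 33 genes were called (0.216%), 22 higher and 11 lower, and 1922 had an unadjusted p under 0.05. Of the 100 called genes named with values in the text, 12 kept their call without it. Leaving out replicate 1 of 24 h gave 1787 calls (11.2% of 16020 genes tested), leaving out replicate 1 of 48 h gave 1376, and leaving out replicate 2 of 24 h gave 4140.

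**Figure D1:**
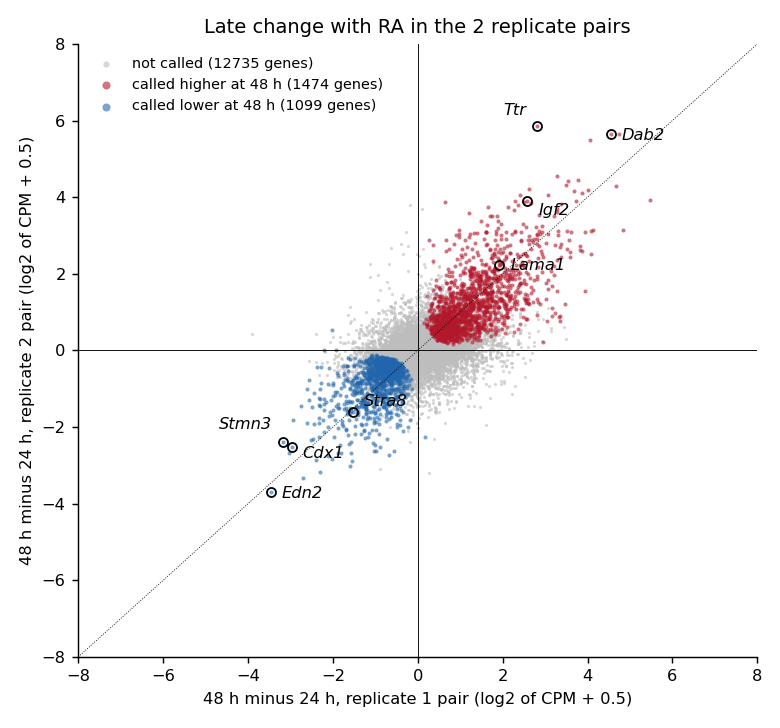
Log2 change of CPM + 0.5 from 24 h to 48 h of RA in the number 1 libraries (horizontal) and the number 2 libraries (vertical), with 1 point per gene tested, red for the 1474 called higher at 48 h, blue for the 1099 called lower and grey for the rest. The pairs share a sign in all 1474 genes called higher and in 1095 of the 1099 called lower, and the red points reach farther from 0 than the blue ones.

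Levels are given as CPM, the read count of a gene scaled to the size of its library, in replicate 1 and then replicate 2, and changes as the log2 of 48 h over 24 h with the standard error (SE). The genes with the largest increases by the naming rule were mostly close to silent at 24 h. Ttr, which encodes the thyroid hormone carrier transthyretin, had 2.98 and 28.3 CPM at 48 h and no count in either library at 24 h, at least 122-fold higher (adjusted p = 9.89e-05), a bound that falls to 21.3-fold without replicate 2 of 48 h. Tnc, the matrix glycoprotein tenascin C, had 5.34 and 10.1 CPM at 48 h and no count at 24 h, at least 57.4-fold higher (adjusted p = 0.000288). The Tnc bound was 38.2-fold without replicate 2 of 48 h and 73.3-fold without replicate 1 of 48 h. Hkdc1, a hexokinase family member, had 5.95 and 8.43 CPM at 48 h and no count at 24 h, at least 52.8-fold higher (adjusted p = 0.000473). All 3 were absent from both 24 h libraries and present in both 48 h libraries. Bounds for Ttr, Tnc and Hkdc1 drop to 56.3, 26.5 and 24.3 without replicate 2 of 24 h and to 65.9, 31.0 and 28.5 without replicate 1, by construction, since the floor of 3 counts is then set against 1 library.

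Dab2, an adaptor that clathrin-coated pits use for endocytosis and a long-used marker of F9 differentiation, was also among the largest increases. Unlike Ttr, Tnc and Hkdc1, it was already detected in both libraries at 24 h. It had 575 and 612 CPM at 48 h, against 24.1 and 11.8 CPM at 24 h, a log2 change of 5.24 ± 0.54 (SE, adjusted p = 0.000477). The groups lay far apart in both pairs, but without replicate 1 of 24 h the adjusted p was 0.0715, and the log2 change was 6.01 without replicate 1 of 48 h and 4.31 without replicate 2. Cdh6, a cadherin, had 22.9 and 29.5 CPM at 48 h, against 0.426 and 1.03 CPM at 24 h (log2 change 5.23 ± 0.39, adjusted p = 8.73e-06). Klb, a co-receptor for endocrine FGFs, had 30.7 and 25.9 CPM at 48 h, against 1.38 and 0.0855 CPM at 24 h (log2 change 5.50 ± 0.61, adjusted p = 0.000178). Its log2 change was 7.94 without replicate 1 of 24 h, 4.57 without replicate 2 of 24 h, 6.87 without replicate 1 of 48 h and 4.70 without replicate 2. Tfec, a transcription factor of the Mitf family, had 7.49 and 10.1 CPM at 48 h, against a single count over both libraries at 24 h, a ratio of counts of 193 with a 95% interval of 34.3 to 7669 (adjusted p = 0.000496). The calls of Cdh6, Klb and Tfec held with each of the 4 libraries left out in turn.

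The largest decreases were smaller, and 10 of the 12 genes that the rule names had been called higher at 12 h of RA than at 0 h. That share was 5.48% over all genes tested and 19.6% (215 of 1099) over all genes called lower late. The 12 were picked for a large fall from a mean of at least 5 CPM at 24 h, so they do not stand for all decreases. Edn2, which encodes the peptide endothelin 2, had 0.205 and 0.0835 CPM at 48 h, against 7.24 and 7.10 CPM at 24 h, a ratio of counts of 24 h over 48 h of 50.5 (95% interval 17 to 248, adjusted p = 4.38e-05). Foxn4, a forkhead transcription factor, had 1.13 and 1.75 CPM at 48 h, against 12.9 and 13.9 CPM at 24 h (log2 change -3.16 ± 0.31, adjusted p = 5.37e-05). Cpne5, a calcium-dependent membrane-binding copine, had 6.36 and 2.17 CPM at 48 h, against 44.4 and 26.3 CPM at 24 h (log2 change -3.08 ± 0.25, adjusted p = 1.61e-05). In each of these the groups did not overlap. Actn3, an alpha actinin, fell by 2.86 on the log2 scale (SE 0.29, adjusted p = 6.38e-05), to 2.67 and 1.67 CPM at 48 h, against 16.2 and 15.2 CPM at 24 h. Kirrel2, a cell surface adhesion protein, fell by 2.82 (SE 0.35, adjusted p = 0.000273), to 1.03 and 0.668 CPM at 48 h, against 7.24 and 5.05 CPM at 24 h.

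Transcription factors of the extraembryonic endoderm rose as a list: 11 of the 13 tested members were called higher and none lower, with a median log2 change of 2.17, beside 9.63% higher and a median of 0.03 over all genes tested. The count was 5 without replicate 2 of 48 h, 8 to 10 with one of the other 3 libraries left out, and 0 without the replicate block. Sox17, a definer of endoderm, had 78.4 and 30.0 CPM at 48 h, against 6.50 and 1.03 CPM at 24 h (log2 change 4.07 ± 0.31, adjusted p = 8.73e-06), and its log2 change was 4.84 without replicate 1 of 24 h. Cited1, a coactivator of transcription, had 23.4 and 18.7 CPM at 48 h, against 1.60 and 2.57 CPM at 24 h (log2 change 3.38 ± 0.44, adjusted p = 0.000381). Foxa2, a factor that opens chromatin at endoderm genes, had 30.3 and 32.8 CPM at 48 h, against 8.95 and 2.39 CPM at 24 h (log2 change 2.77 ± 0.45, adjusted p = 0.00189). The 48 h libraries of Foxa2 lay close together while its 24 h libraries did not, and its log2 change ranged from 1.70 without replicate 2 of 48 h and 2.05 without replicate 2 of 24 h to 3.52 without replicate 1 of 24 h and 3.87 without replicate 1 of 48 h.

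The GATA factors of the same list were already on at 24 h. Gata4 had 252 and 183 CPM at 48 h, against 137 and 39.4 CPM at 24 h (log2 change 1.53 ± 0.25, adjusted p = 0.00222). Gata6 had 141 and 122 CPM at 48 h, against 131 and 85.2 CPM at 24 h, a log2 change of 0.36 ± 0.26 that did not pass the test (adjusted p = 0.368), and its groups overlapped. Sox7, a relative of Sox17, had 224 and 192 CPM at 48 h, against 163 and 157 CPM at 24 h (log2 change 0.39 ± 0.14, adjusted p = 0.0737). Sox7 did not overlap between the groups, yet it missed the threshold, and it was past it without replicate 2 of 24 h (adjusted p = 0.0329). Hnf4a, a nuclear factor that runs liver and visceral endoderm genes, was higher by 2.17 ± 0.43 on the log2 scale (adjusted p = 0.00459). Leaving out replicate 2 of 48 h ended the call (adjusted p = 0.0568).

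Products of the visceral endoderm followed. Of 19 tested members, 12 were called higher and none lower (median log2 change 2.01), with 6 higher without replicate 2 of 48 h, 8 without replicate 1 of 24 h and 0 without the replicate block. Their summed level was 1578 to 1723 CPM in the 48 h libraries and 464 to 672 CPM in the 24 h libraries, against 635 and 433 CPM with DMSO for 48 h and 24 h. Beside Ttr and Dab2, Cubn, which encodes the scavenger receptor cubilin and was named after its values were seen, had 94.4 and 68.7 CPM at 48 h, against 6.39 and 2.65 CPM at 24 h (log2 change 4.39 ± 0.46, adjusted p = 0.000197). Its log2 change was 5.23 without replicate 1 of 48 h and 3.52 without replicate 2. Ihh, the signal Indian hedgehog, had 17.1 and 8.26 CPM at 48 h, against 1.28 and 0.599 CPM at 24 h (log2 change 3.77 ± 0.39, adjusted p = 8.21e-05). Of the 29 listed members, 2 had no count in either 48 h library and 9 had none in either 24 h library. Afp, the alpha-fetoprotein gene that mature visceral endoderm expresses strongly, had too few counts to be tested.

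Parietal endoderm products rose over the same day, with 11 of 17 tested members called higher and 1 lower (median log2 change 1.71), and 10 or 11 higher with any one of the 4 libraries left out. Without the replicate block 2 were called higher. Plat, the tissue plasminogen activator long used as a parietal marker in F9 cells, had 128 and 122 CPM at 48 h, against 29.6 and 15.6 CPM at 24 h (log2 change 2.53 ± 0.21, adjusted p = 1.66e-05). Pdgfra, the receptor for platelet-derived growth factor A, had 104 and 54.8 CPM at 48 h, against 20.8 and 5.99 CPM at 24 h (log2 change 2.78 ± 0.30, adjusted p = 0.000147). Aqp8, a water channel, had 9.85 and 6.09 CPM at 48 h, against 0.107 and 0.257 CPM at 24 h (log2 change 5.27 ± 0.74, adjusted p = 0.000749). All 3 had non-overlapping groups, and the log2 change of Aqp8 was 4.40 without replicate 1 of 24 h and 6.48 without replicate 2 of 24 h. Thbd, the parietal marker thrombomodulin, stayed low, at 2.36 and 2.17 CPM at 48 h and 0.107 and 1.20 CPM at 24 h, and was not called (log2 change 1.89 ± 0.87, adjusted p = 0.16), except without replicate 2 of 24 h (log2 change 4.15, adjusted p = 0.0489). The member that fell was Stra6, which encodes the cell surface receptor for retinol-binding protein, with 37.1 and 34.8 CPM at 48 h, against 92.7 and 71.5 CPM at 24 h (log2 change -1.17 ± 0.19, adjusted p = 0.0013).

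The genes of the basement membrane rose in both of its main networks. Laminins are glycoproteins of an alpha, a beta and a gamma chain that assemble into the sheet to which epithelia attach, and laminin 111 is made of the products of Lama1, Lamb1 and Lamc1. Lama1 had 1778 and 926 CPM at 48 h, against 470 and 196 CPM at 24 h (log2 change 2.11 ± 0.15, adjusted p = 8.73e-06). Lamb1 had 922 and 701 CPM at 48 h, against 139 and 92.5 CPM at 24 h (log2 change 2.85 ± 0.13, adjusted p = 2.87e-07). Lamc1 had 1029 and 741 CPM at 48 h, against 430 and 427 CPM at 24 h (log2 change 1.05 ± 0.13, adjusted p = 0.000288). The 3 chains rose by unequal amounts, Lamb1 by the most and Lamc1 by the least. In the whole laminin list 5 of 8 tested chains were called higher and none lower (3 without replicate 1 of 48 h, 4 to 6 with another library left out, 1 without the replicate block).

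Collagen IV, the network-forming collagen of the same sheet, rose in its common chains. Col4a1 had 1916 and 1662 CPM at 48 h, against 543 and 376 CPM at 24 h (log2 change 2.03 ± 0.22, adjusted p = 0.000202). Col4a2 had 1480 and 1001 CPM at 48 h, against 390 and 202 CPM at 24 h (log2 change 2.17 ± 0.24, adjusted p = 0.000232). With Sparc, a collagen-binding glycoprotein (1978 and 981 CPM at 48 h, against 727 and 418 CPM at 24 h, log2 change 1.36 ± 0.13, adjusted p = 4.63e-05), they were among the 10 of 16 tested members of the collagen IV and basement membrane list that rose. None fell, and 7 to 11 were called with a library left out. Without the replicate block 0 were called. The list of collagen folding and crosslinking genes rose as well, with 13 of 22 tested members higher and none lower. Beside enzymes that prepare collagen in the endoplasmic reticulum, it holds the lysyl oxidase genes Loxl1, Loxl2 and Loxl3, which were not called. It also holds transcription factor genes, of which Creb3l2 rose. The count was smaller without either of the 48 h libraries, and 0 without the replicate block. Serpinh1, the collagen chaperone Hsp47, had 1678 and 1425 CPM at 48 h, against 528 and 401 CPM at 24 h (log2 change 1.77 ± 0.14, adjusted p = 1.09e-05). Plod2, a lysyl hydroxylase that prepares crosslinks, rose by 1.43 ± 0.15 (adjusted p = 9.89e-05), and P3h2, a prolyl hydroxylase of collagen IV, by 4.98 ± 0.61 (adjusted p = 0.000237) on the log2 scale. The increase of P3h2 was 5.74 without replicate 1 of 48 h and 4.35 without replicate 2.

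**Figure D2:**
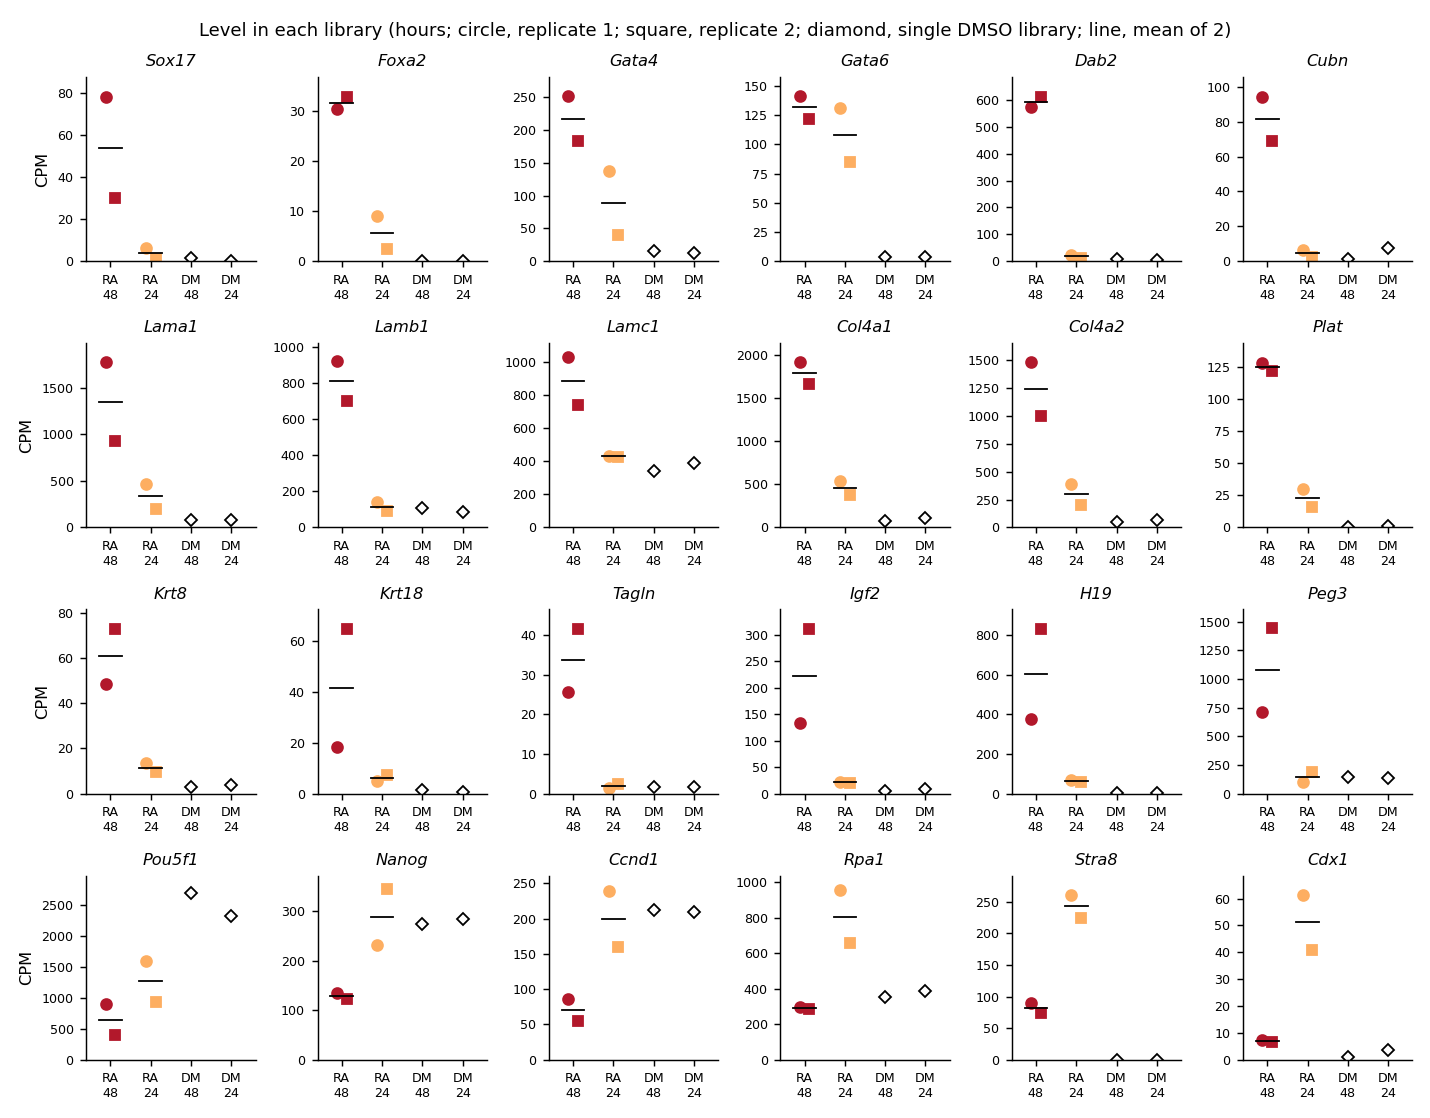
Level in CPM of 24 genes in each library, with RA at 48 h and 24 h (filled circles for replicate 1, squares for replicate 2, lines for the mean of the pair) and with DMSO at 48 h and 24 h (open diamonds, 1 library each); the vertical axes start at 0 and differ between genes. Lama1, Lamb1, Col4a1 and Col4a2 stand higher in both 48 h libraries than in any other library shown, while Rpa1 and Stra8 stand highest at 24 h of RA.

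General secretory machinery was counted apart from the collagen enzymes. In the list of folding and transport genes of the endoplasmic reticulum 7 of 41 tested members rose and 2 fell, a median log2 change of 0.12 (3 higher without replicate 1 of 48 h, 5 or 6 without replicate 1 of 24 h or replicate 2 of 48 h, 10 without replicate 2 of 24 h, and 0 without the block). The count lower was 0 without either replicate 1 library and 4 without replicate 2 of 24 h. Kdelr3, a receptor that returns escaped proteins, rose by 1.78 ± 0.24 (adjusted p = 0.000486). Atf6, a sensor of unfolded protein, rose by 0.79 ± 0.14 (adjusted p = 0.00195), and Pdia3, a disulfide isomerase, by 0.71 ± 0.12 (adjusted p = 0.00147). The shares called were 17.1% higher and 4.88% lower, beside 9.63% and 7.18% of all genes tested.

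Most lysosomal genes rose. Of 29 tested members, 22 (75.9%) were called higher and none lower, with a median log2 change of 0.72, and 15 to 22 were called with a library left out, 3 without the replicate block. Their summed level was 6308 to 6818 CPM at 48 h, against 3714 to 4029 CPM at 24 h, and it was 3999 and 3440 CPM with DMSO at 48 h and 24 h. Ctsl, the protease cathepsin L, had 1030 and 984 CPM at 48 h, against 437 and 318 CPM at 24 h (log2 change 1.47 ± 0.16, adjusted p = 9.89e-05). Lgmn, the protease legumain, had 185 and 175 CPM at 48 h, against 50.8 and 50.5 CPM at 24 h (log2 change 1.85 ± 0.15, adjusted p = 1.42e-05). Cd63, a membrane protein of late endosomes, had 60.6 and 50.7 CPM at 48 h, against 14.3 and 13.3 CPM at 24 h (log2 change 2.03 ± 0.19, adjusted p = 4.04e-05). The largest member change was that of Ctsc, cathepsin C, at 2.58 ± 0.24 (adjusted p = 4.34e-05). Beside the proteases Ctsa, Ctsb, Ctsd and Ctsz, the members that rose include the membrane proteins Lamp1 and Lamp2 and the cholesterol exporters Npc1 and Npc2.

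Genes of cell shape and attachment rose in part. Keratins 8, 18 and 19 form the filaments of simple epithelia. Krt8 had 48.4 and 73.0 CPM at 48 h, against 13.4 and 9.58 CPM at 24 h (log2 change 2.43 ± 0.26, adjusted p = 9.89e-05). Krt18, its partner, had 18.5 and 64.8 CPM at 48 h, against 4.79 and 7.35 CPM at 24 h (log2 change 2.62 ± 0.32, adjusted p = 0.000231), and Krt19 rose by 2.76 ± 0.43 (adjusted p = 0.00111). Neither Krt8 nor Krt18 overlapped between the groups. In the epithelial list 9 of 25 tested members rose and none fell (4 higher without replicate 1 of 48 h, 5 without replicate 1 of 24 h, 7 or 9 without the others, 1 without the replicate block). Cdh1, the epithelial cadherin, had 255 and 316 CPM at 48 h and 266 and 398 CPM at 24 h and was not called (log2 change -0.17 ± 0.17, adjusted p = 0.544). Cdh2, the neural cadherin, had 70.8 and 96.9 CPM at 48 h, against 25.8 and 25.3 CPM at 24 h (log2 change 1.74 ± 0.21, adjusted p = 0.000232).

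Actin genes of contractile cells were higher at 48 h, with 14 of 27 tested members called higher and none lower (10 to 16 higher and up to 2 lower with a library left out, 1 without the replicate block). Tagln, the actin-binding protein transgelin, had 25.6 and 41.7 CPM at 48 h, against 1.49 and 2.31 CPM at 24 h (log2 change 4.14 ± 0.37, adjusted p = 2.7e-05). Cnn2, a calponin, had 56.9 and 71.5 CPM at 48 h, against 11.8 and 13.8 CPM at 24 h (log2 change 2.35 ± 0.20, adjusted p = 2.08e-05). Both genes were low in each 24 h library and in both DMSO libraries, at 1.56 and 1.67 CPM for Tagln and 7.00 and 8.49 CPM for Cnn2 with DMSO at 48 h and 24 h. Vim, the intermediate filament vimentin, rose by 0.45 ± 0.14 (adjusted p = 0.0381), and missed the threshold without either replicate 2 library (adjusted p = 0.295 without that of 48 h and 0.172 without that of 24 h). Among integrins, which bind the matrix, 4 of 11 tested subunits rose and 1 fell (2 higher without replicate 2 of 48 h and without replicate 1 of 24 h, and 0 lower without replicate 2 of 48 h), and the laminin and collagen partner Itgb1 and the subunit Itgav (log2 change 1.20 ± 0.25, adjusted p = 0.00581) were among those that rose.

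**Figure D3:**
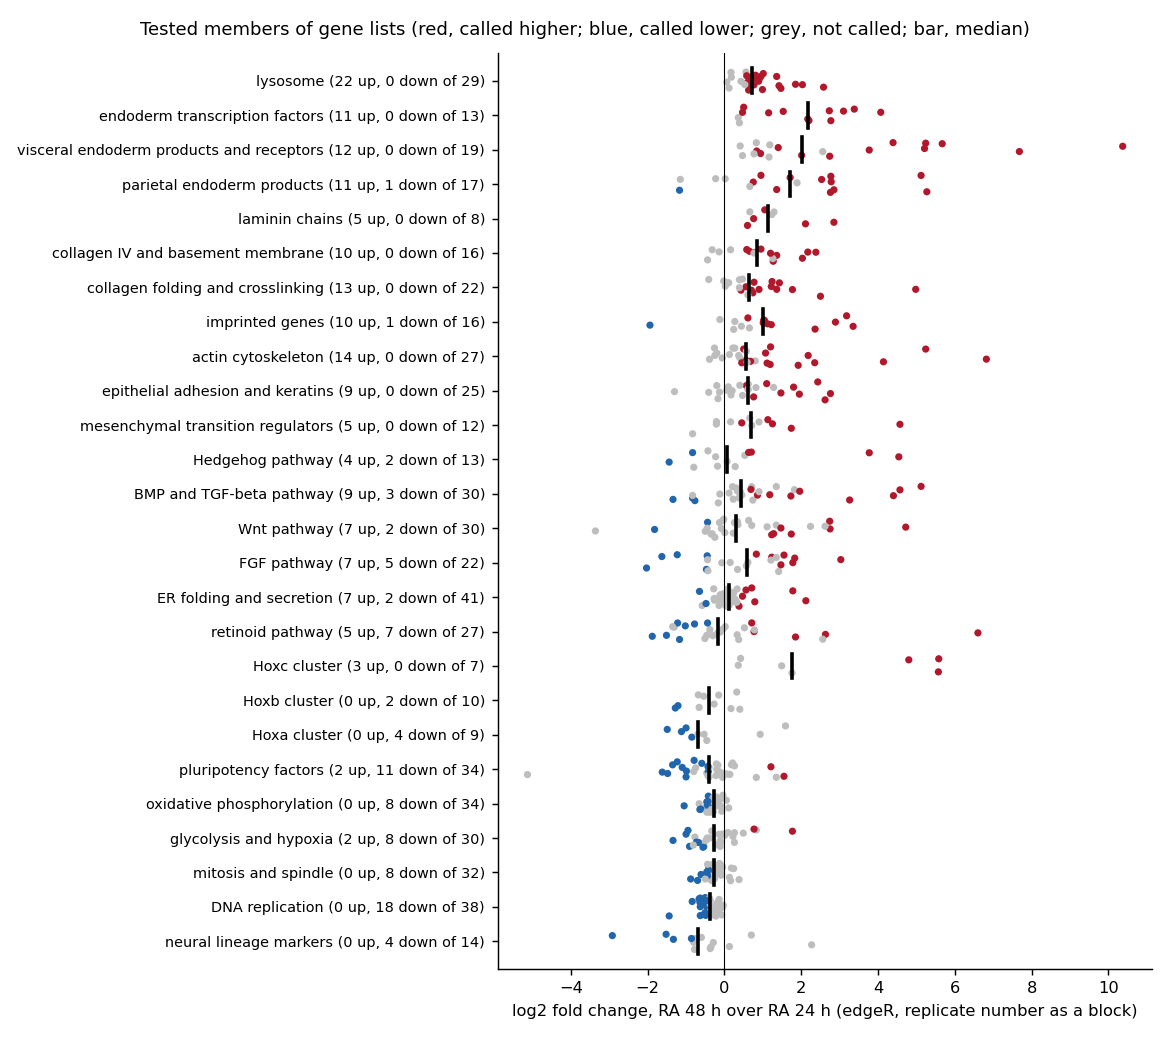
Log2 fold change of 48 h over 24 h of RA (horizontal axis) for each tested member of 26 gene lists, with red for members called higher, blue for members called lower, grey for members not called and a black bar at the list's median. The medians of the endoderm and basement membrane lists lie right of 0, and those of DNA replication, mitosis, Hoxa and neural genes lie left of 0.

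Secreted signals follow by pathway, beside 9.63% of all genes tested higher and 7.18% lower. The BMP and TGF-beta list had 30% higher and 10% lower. The Wnt list had 23.3% higher and 6.67% lower, the latter near the share of all genes. The count higher in the BMP and TGF-beta list moved both up and down with a library left out. Without the replicate block 0 were called in either list. In the BMP and TGF-beta list 9 of 30 tested members rose and 3 fell, and Bmp2, a BMP ligand, had 19.8 and 15.2 CPM at 48 h, against 0.213 and 1.28 CPM at 24 h (log2 change 4.40 ± 0.64, adjusted p = 0.000874). Tgfb2, a TGF-beta ligand, had 6.57 and 15.1 CPM at 48 h, against 0.639 and 0.342 CPM at 24 h (log2 change 4.57 ± 0.70, adjusted p = 0.00107). Both ligands were close to absent at 24 h. The log2 change of Bmp2 was 3.32 without replicate 1 of 24 h and 6.73 without replicate 2 of 24 h, and that of Tgfb2 was 5.75 without replicate 1 of 48 h and 3.13 without replicate 2. In the Wnt list 7 of 30 rose and 2 fell, with 0 lower without either of the 48 h libraries. Dkk1, which blocks Wnt co-receptors, rose by 2.74 ± 0.38 (adjusted p = 0.000599), and its relative Dkk3 by 2.75 ± 0.44 (adjusted p = 0.00127). Dkk1 had 63.4 and 31.8 CPM at 48 h, against 16.9 and 2.31 CPM at 24 h. Its log2 change was 1.90 without replicate 2 of 48 h and 2.04 without replicate 2 of 24 h, and 3.81 and 3.65 without the replicate 1 libraries of 48 h and 24 h.

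The FGF, Notch and Hedgehog lists are read beside 9.63% of all genes tested higher and 7.18% lower. Of 22 tested FGF genes 7 rose (31.8%) and 5 fell (22.7%; 4 higher without replicate 1 of 48 h and 3 without replicate 2 of 24 h). Etv4, a transcription factor that FGF signalling switches on, had 55.1 and 36.1 CPM at 48 h, against 263 and 128 CPM at 24 h (log2 change -2.03 ± 0.15, adjusted p = 8.7e-06). In contrast, Dusp4, a phosphatase that turns the same pathway down, had 30.2 and 71.9 CPM at 48 h, against 10.9 and 17.1 CPM at 24 h (log2 change 1.83 ± 0.24, adjusted p = 0.000399). The mean of Dusp4 was 24.7 CPM at 0 h, and it had 32.9 and 25.9 CPM with DMSO at 48 h and 24 h. Its replicate 1 at 48 h therefore lay below the DMSO library of 48 h. Of 17 tested Notch genes 2 rose and 2 fell, 11.8% each way, which is near the share of all genes, and 1 fell without either replicate 1 library. Notch4, a receptor, had 5.64 and 2.75 CPM at 48 h, against 26.2 and 21.5 CPM at 24 h (log2 change -2.52 ± 0.21, adjusted p = 2.08e-05). Jag1, a ligand, had 9.13 and 12.2 CPM at 48 h, against 2.34 and 3.93 CPM at 24 h (log2 change 1.80 ± 0.29, adjusted p = 0.00127). The Jag1 level at 48 h stayed below its mean at 0 h, 21.9 CPM. It also stayed below the DMSO libraries, at 23.5 and 23.1 CPM at 48 h and 24 h. In the Hedgehog list 4 of 13 rose and 2 fell (1 higher without replicate 2 of 48 h, and 2 without replicate 1 of 48 h and without replicate 1 of 24 h): the ligand Ihh rose as given above, and the effector Gli2 was among those that fell (log2 change -0.83 ± 0.17, adjusted p = 0.00477).

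Genes that RA is known to induce split between those that held their level and those that fell. Rarb, the RA receptor gene that RA itself induces, had 47.5 and 54.3 CPM at 48 h, against 33.6 and 38.5 CPM at 24 h, and narrowly missed the threshold (log2 change 0.52 ± 0.17, adjusted p = 0.0503). Cyp26a1, the enzyme that degrades RA, had 182 and 237 CPM at 48 h, against 286 and 244 CPM at 24 h (log2 change -0.38 ± 0.29, adjusted p = 0.406). Cyp26b1, a related enzyme, had 14.5 and 26.0 CPM at 48 h, against 88.0 and 31.6 CPM at 24 h (log2 change -1.31 ± 0.48, adjusted p = 0.105), and it passed the test without replicate 2 of 48 h (log2 change -2.46, adjusted p = 0.00108). Stra8, a gene that RA induces and that starts meiosis in germ cells, had 90.2 and 73.9 CPM at 48 h, against 260 and 225 CPM at 24 h (log2 change -1.54 ± 0.20, adjusted p = 0.00037). Its groups did not overlap, and it had 0.259 and 0 CPM with DMSO at 48 h and 24 h. In the retinoid list 5 of 27 tested members rose (1 without replicate 1 of 48 h and 2 without replicate 2) and 7 fell (6 to 9 with a library left out). These shares were 18.5% higher and 25.9% lower, beside 9.63% and 7.18% of all genes tested. The members that fell include the receptor genes Rara, Rarg and Rxrg and the binding protein Crabp2. Rxrg had few counts at 48 h, and its call was lost without replicate 2 of 48 h.

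Hox genes, which give position along the body axis and are switched on by RA in order along each cluster, moved in both directions. They are read beside 9.63% of all genes tested higher and 7.18% lower. In Hoxa, 4 of 9 tested genes fell and none rose (3 or 4 lower with a library left out, and 2 higher without replicate 1 of 48 h), and in Hoxb 2 of 10 fell (1 without replicate 1 of 48 h and 4 without replicate 2 of 24 h). Hoxa5 had 42.8 and 30.9 CPM at 48 h, against 114 and 55.7 CPM at 24 h (log2 change -1.12 ± 0.20, adjusted p = 0.003). Hoxb5 had 15.9 and 20.2 CPM at 48 h, against 55.2 and 36.8 CPM at 24 h (log2 change -1.28 ± 0.24, adjusted p = 0.00326). In each of these genes both 48 h libraries lay below both 24 h libraries. In Hoxc 3 of 7 tested genes rose, all from near 0, and Hoxc9 had 2.67 and 10.5 CPM at 48 h, against 3 counts over both libraries at 24 h, a ratio of counts of 50.5 with a 95% interval of 16.9 to 247 (adjusted p = 0.00143). None of the 3, which are Hoxc8, Hoxc9 and Hoxc10, was called without replicate 2 of 48 h, where the adjusted p of Hoxc9 was 0.0641. In Hoxd 1 of 3 tested genes rose, Hoxd8, also from near 0, and its call was lost without replicate 2 of 48 h. Whether these changes go by cluster or by position along a cluster was not tested. Without the replicate block no gene of these clusters was called.

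Cdx1, a homeobox gene upstream of Hox genes that RA induces directly, had 7.39 and 6.68 CPM at 48 h, against 61.3 and 40.9 CPM at 24 h (log2 change -2.80 ± 0.30, adjusted p = 0.00015). Its mean was 2.30 CPM at 0 h and 42.3 CPM at 12 h, so that its 48 h level lay nearer to that of untreated cells than to its level at 12 or 24 h. Its groups did not overlap, and its call held with each of the 4 libraries left out.

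Pluripotency genes fell in part, and are read beside 7.18% of all genes tested lower and 9.63% higher. Of 34 tested members 11 fell (32.4%) and 2 rose, with a median log2 change of -0.40 (1 higher without replicate 1 of 48 h). The count lower was 7 without replicate 2 of 48 h and without replicate 2 of 24 h, 12 or 15 without the others, and 0 without the replicate block. Pou5f1, the core pluripotency factor Oct4, had 900 and 393 CPM at 48 h, against 1597 and 938 CPM at 24 h (log2 change -1 ± 0.16, adjusted p = 0.00135). Nanog, its partner, had 134 and 122 CPM at 48 h, against 231 and 345 CPM at 24 h (log2 change -1.10 ± 0.17, adjusted p = 0.000922). Klf2, a factor that supports the naive state, had 104 and 57.4 CPM at 48 h, against 246 and 167 CPM at 24 h (log2 change -1.35 ± 0.19, adjusted p = 0.000737). These 3 fell but were still well detected at 48 h. Sox2 had 254 and 167 CPM at 48 h and 274 and 279 CPM at 24 h (log2 change -0.40 ± 0.18, adjusted p = 0.137). Zfp42 had 283 and 139 CPM at 48 h and 296 and 266 CPM at 24 h (log2 change -0.46 ± 0.18, adjusted p = 0.0899). Neither was called, although Zfp42 was without replicate 1 of 48 h (adjusted p = 0.0115) and without replicate 1 of 24 h (adjusted p = 0.0478). Klf4, which belongs to the same network, went the other way, by 1.21 ± 0.23 (adjusted p = 0.00378), and was not called when replicate 1 of 48 h was left out (adjusted p = 0.0645).

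Markers of other lineages were counted beside these lists. Of all genes tested 9.63% were called higher and 7.18% lower, and the trophoblast list, at 8.33% each way, was near these shares. The mesoderm list had 25% higher and 16.7% lower. Of 14 tested neural markers none rose and 4 fell (4 lower with each library left out), and the list summed to 265 to 287 CPM at 48 h, against 422 to 596 CPM at 24 h. Elavl3, a neuronal RNA-binding protein, had 25 and 16.3 CPM at 48 h, against 82.7 and 41.7 CPM at 24 h (log2 change -1.52 ± 0.18, adjusted p = 0.000173). Tubb3, a neuronal tubulin, had 98.9 and 72.8 CPM at 48 h, against 200 and 122 CPM at 24 h (log2 change -0.86 ± 0.13, adjusted p = 0.000937). The neuronal determinant Neurog1 had no count in any of the 4 libraries. Mesoderm markers summed to 168 to 232 CPM at 48 h and 200 to 375 CPM at 24 h, with 3 of 12 tested higher (1 without either replicate 2 library) and 2 lower, and the muscle determinant Myf5 had no count. Trophoblast markers summed to 123 to 134 CPM at 48 h and 86.5 to 143 CPM at 24 h, with 1 of 12 higher (2 without either replicate 2 library) and 1 lower (0 without replicate 2 of 48 h, 2 without replicate 1 of 48 h and without replicate 2 of 24 h), and the placental genes Tpbpa and Prl3d1 had no count. Of the definitive endoderm and gut markers 4 of 8 tested rose and none fell (1 without replicate 2 of 48 h, 2 without replicate 1 of 24 h, 3 without the others). The list summed to 106 to 128 CPM at 48 h and 96.6 to 109 CPM at 24 h, and the liver and gut genes Alb, Fabp1 and Fabp2 had no count. The part of these markers in the results above was not tested.

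Part of the genes of cell division fell, and their lists are read beside 7.18% of all genes tested lower and 9.63% higher. Of 38 tested DNA replication genes 18 fell (47.4%) and none rose, with a median log2 change of -0.38. The count lower was 8 without replicate 1 of 48 h, 13 to 18 with one of the other libraries left out, and 1 without the replicate block. They include the helicase subunits Mcm2, Mcm3 and Mcm5 and the clamp Pcna. The call of Pcna was lost without replicate 1 of 48 h and without either 24 h library. Rpa1, a subunit of the protein that coats single-stranded DNA, fell by the most, with 295 and 287 CPM at 48 h, against 957 and 657 CPM at 24 h (log2 change -1.44 ± 0.14, adjusted p = 6.36e-05). The Rpa1 level at 24 h was itself above that with DMSO, which was 354 and 385 CPM at 48 h and 24 h. Rfc5, a subunit of the clamp loader, had 84.2 and 83.1 CPM at 48 h, against 137 and 131 CPM at 24 h (log2 change -0.66 ± 0.12, adjusted p = 0.00251). Of 32 mitosis genes 8 fell and none rose, but 1 fell without replicate 1 of 48 h and 0 without the replicate block. Cdc20, which drives exit from mitosis, had 207 and 144 CPM at 48 h, against 332 and 216 CPM at 24 h (log2 change -0.61 ± 0.13, adjusted p = 0.00641).

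Regulators of the G1 phase moved in both directions, with 5 of 27 tested higher (2 without either of the 48 h libraries) and 6 lower. These shares were 18.5% and 22.2%, beside 9.63% and 7.18% of all genes tested. Ccnd1, cyclin D1, had 85.8 and 55.6 CPM at 48 h, against 239 and 160 CPM at 24 h (log2 change -1.48 ± 0.14, adjusted p = 4.08e-05). Ccnd3, cyclin D3, had 285 and 154 CPM at 48 h, against 476 and 340 CPM at 24 h (log2 change -0.92 ± 0.13, adjusted p = 0.000668). The inhibitor Cdkn1b had 96.3 and 131 CPM at 48 h and 103 and 110 CPM at 24 h and was not called (log2 change 0.11 ± 0.13, adjusted p = 0.616). Among p53 targets 5 of 17 rose (3 without replicate 1 of 48 h, 2 without replicate 2) and 2 fell (0 without replicate 1 of 48 h, and 1 without replicate 2 of 48 h and without replicate 1 of 24 h). The shares were 29.4% higher and 11.8% lower. Trp53inp1, a stress protein, had 75.4 and 162 CPM at 48 h, against 29.3 and 95.9 CPM at 24 h (log2 change 1.07 ± 0.16, adjusted p = 0.00099). Ccng1, cyclin G1, had 269 and 454 CPM at 48 h, against 143 and 274 CPM at 24 h (log2 change 0.83 ± 0.14, adjusted p = 0.00147). Both genes rose in each pair, but their groups overlapped. Their 48 h means, 119 and 361 CPM, lay near their means at 0 h, 111 and 333 CPM. The Myc family split: Mycn had 129 and 169 CPM at 48 h, against 18.1 and 45.9 CPM at 24 h (log2 change 2.40 ± 0.25, adjusted p = 0.000177). The mean of Mycn was 187 CPM at 0 h, so its 48 h level was not above that of untreated cells. With DMSO it had 103 and 94.4 CPM at 48 h and 24 h. Myc had 42.5 and 25.2 CPM at 48 h and 53.5 and 28.4 CPM at 24 h and was not called (log2 change -0.23 ± 0.15, adjusted p = 0.312).

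Of the metabolic lists, glycolysis and oxidative phosphorylation held more decreases than increases. Their shares lower were 26.7% and 23.5%, beside 7.18% of all genes tested, and the share higher over all genes was 9.63%. In glycolysis and hypoxia 8 of 30 tested genes fell and 2 rose (1 higher without replicate 1 of 48 h; 3 lower without replicate 1 of 24 h, 4 without replicate 2 of 48 h, 10 without the others). Slc2a1, the glucose transporter GLUT1, had 813 and 532 CPM at 48 h, against 1255 and 1373 CPM at 24 h (log2 change -0.95 ± 0.17, adjusted p = 0.00249). In oxidative phosphorylation 8 of 34 fell and none rose, but the count was 1 without replicate 1 of 48 h, 3 without replicate 2 of 48 h, 1 without replicate 1 of 24 h and 19 without replicate 2 of 24 h. In cholesterol and fatty acid synthesis 1 of 28 fell (3.57%) and none rose, with 7 lower without replicate 1 of 48 h, 0 without replicate 2 of 48 h and 3 without replicate 2 of 24 h. Without the replicate block 0 were called in these 3 lists.

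Imprinted genes, which are read from the maternal or the paternal copy only, mostly rose. Of 16 tested members 10 rose and 1 fell (median log2 change 1.01), and 9 or 10 rose with any library left out, 1 without the replicate block. Igf2, the growth factor IGF2, had 134 and 311 CPM at 48 h, against 21.9 and 20.4 CPM at 24 h (log2 change 3.35 ± 0.32, adjusted p = 0.000116). H19, the noncoding RNA beside it, had 378 and 829 CPM at 48 h, against 66.6 and 56.1 CPM at 24 h (log2 change 3.18 ± 0.32, adjusted p = 0.00023). Peg3, a zinc finger protein, had 710 and 1444 CPM at 48 h, against 101 and 190 CPM at 24 h (log2 change 2.89 ± 0.19, adjusted p = 6.91e-06). In all 3 both 48 h libraries lay above both 24 h libraries, and replicate 2 was the higher at 48 h. The log2 change was 2.63 for Igf2 without replicate 2 of 48 h and 3.94 without replicate 1 of 48 h, and 2.50 for H19 without replicate 2 of 24 h and 3.89 without replicate 1 of 24 h. The member that fell was Cdkn1c, the cell cycle inhibitor p57, with 9.44 and 4.59 CPM at 48 h, against 53.4 and 10.5 CPM at 24 h (log2 change -1.94 ± 0.32, adjusted p = 0.00191). Its log2 change was -1.24 without replicate 1 of 24 h.

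The late change was next set against an early interval that shares no library with it, 12 h of RA against 0 h, in which 1481 genes (9.67% of those tested) were called, 839 higher (5.48%) and 642 lower (4.19%). With one of its libraries left out 542 to 692 were called, and 151 without the replicate block. Genes not called early made up 85.1% of the late increases (1255 of 1474) and 73.5% of the late decreases (808 of 1099), beside 90.3% of all genes tested. Among genes raised by 12 h, 25.6% (215 of 839) fell late, beside 7.18% of all genes tested, and 10% (84) rose further. Among genes lowered by 12 h, 21% (135 of 642) rose late, beside 9.63% of all genes tested, and 11.8% (76) fell further. The difference between the late and the early change was tested directly and passed for 2040 genes (13.3%; 220 without the replicate block).

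Stra8, Hoxa5, Cdx1 and Edn2 are examples of a rise that later turned. Stra8 averaged 0.639 CPM at 0 h, 148 CPM at 12 h and, as given above, lay at 225 to 260 CPM at 24 h and 73.9 to 90.2 CPM at 48 h, and the difference of its late and early change was -9.84 on the log2 scale. Edn2 averaged 3.82 CPM at 0 h and 8.68 CPM at 12 h before it fell to 0.205 and 0.0835 CPM at 48 h, against 7.24 and 7.10 CPM at 24 h. Prickle1 and Podxl took the opposite course. Prickle1, a planar cell polarity protein, averaged 7.10 CPM at 0 h and 0.662 CPM at 12 h, and had 36.9 and 52.1 CPM at 48 h, against 6.18 and 4.87 CPM at 24 h (log2 change 3.00 ± 0.29, adjusted p = 5.37e-05). Podxl, a sialomucin of apical membranes, averaged 59.8 CPM at 0 h and 12.7 CPM at 12 h, and had 132 and 282 CPM at 48 h, against 17.4 and 33.9 CPM at 24 h (log2 change 3.01 ± 0.17, adjusted p = 1.31e-06). Both genes ended above their untreated level.

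**Figure D4:**
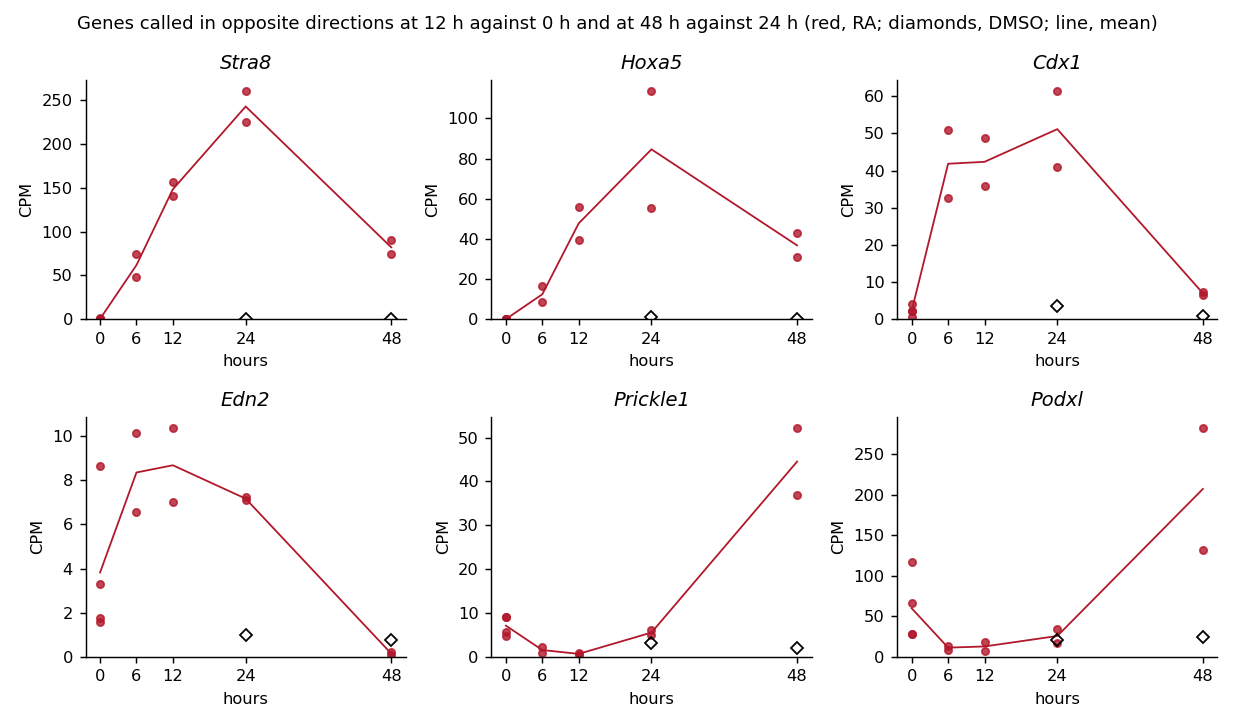
Level in CPM (vertical) at 0, 6, 12, 24 and 48 h of RA (horizontal) of 6 genes called in opposite directions early and late, with a red point per library, a red line through the means, and open diamonds for the single DMSO libraries at 24 and 48 h. Stra8, Hoxa5, Cdx1 and Edn2 are higher at 12 h than at 0 h and lower at 48 h than at 24 h, while Stra8 and Hoxa5 stay far above 0 h. Prickle1 and Podxl are lower at 12 h than at 0 h and highest at 48 h.

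The same genes were read over the same day in culture with DMSO, which is a description, since they were chosen by their change with RA. Among the 1340 genes called higher late with RA that reached 5 CPM, the median log2 change was 1.02 with RA and 0.09 with DMSO, and 60.8% were higher at 48 h than at 24 h with DMSO. Among the 1041 genes called lower, the medians were -0.68 with RA and -0.08 with DMSO, and 33% were higher with DMSO. Among the 9592 genes not called, both medians were -0.01, and 47.5% were higher with DMSO. Between the DMSO libraries themselves no gene was called in edgeR's test, with 568 at an unadjusted p under 0.05, where the spread was taken from the other groups, since each DMSO time has 1 library. A direct test of the RA change minus the DMSO change called 10 of 16155 genes (0.0619%). The RA change lay above the DMSO change for Lama1, Lamb1, Peg3, Igf2, Fst, Tpm1 and Clic5, of which Igf2, Fst and Clic5 were lower at 48 h than at 24 h with DMSO. It lay below the DMSO change for Stmn3, Cpne5 and Kyat3, and Kyat3 was higher at 48 h than at 24 h with DMSO. The count was 0 without the term for the library set, 105 in DESeq2 and 2 to 33 with one RA library left out. Lama1 is an example, with 84.5 and 83.7 CPM with DMSO at 48 h and 24 h, and a difference of 2.07 ± 0.28 in log2 change (adjusted p = 0.0256).

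**Figure D5:**
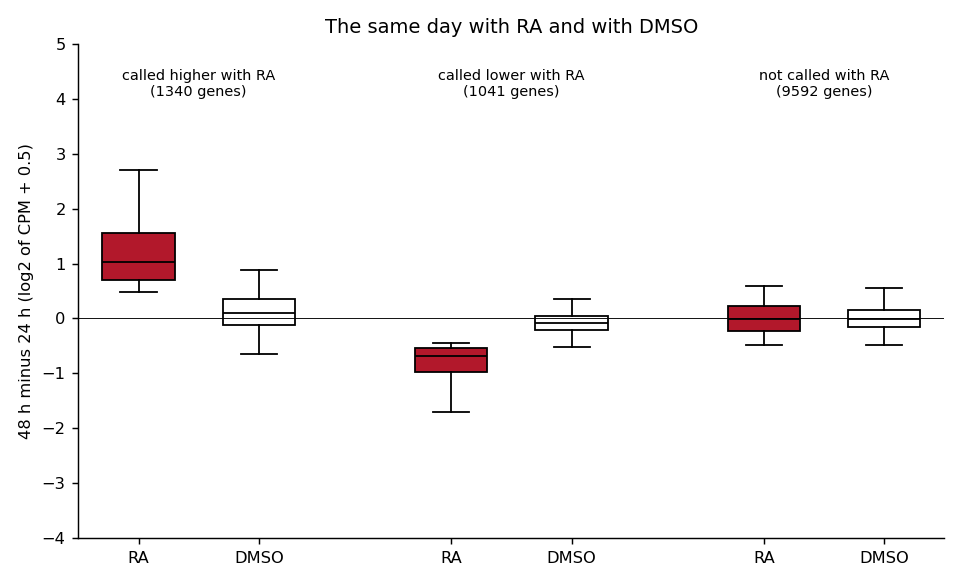
Log2 change of CPM + 0.5 from 24 h to 48 h with RA (red, mean of the replicate pairs) and with DMSO (white, 1 library per time) for genes of at least 5 CPM called higher late with RA (1340), called lower (1041) or not called (9592); boxes span the quartiles with a line at the median, and whiskers the 5th to 95th percentile. The DMSO boxes lie close to 0 in all 3 classes.

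Promoter letters were compared in the 250 bases before each gene start for which RefSeq gives a sequence (assembly GRCm38.p6), counting matches on both strands. The TATA motif TATAAA was present in 12.2% of the promoters of genes called higher by at least 4-fold (38 of 311), in 6.56% for genes called lower by at least 4-fold (4 of 61) and in 6.21% for all genes tested (834 of 13423). The GC box GGGCGG was present in 52.7%, 59% and 58% of these, and the GATA motif GATAA in 17.4%, 16.4% and 14.5%. Counted only 20 to 40 bases before the start, TATAAA was present in 3.54% (11 of 311), 3.28% (2 of 61) and 1.07% (144 of 13423), in the same order. At that position the strong increases and the strong decreases had similar shares. These shares are descriptions without a test, and some genes have several starts. The promoters of 3 genes that rose are shown because their TATAAA, printed in capitals, begins 30 to 32 bases before the start; each sequence is the 100 bases before the start on the gene's strand, which is the minus strand in all 3. The files' own coordinates are on another build, mm9.
Cxcr4, GRCm38.p6 chr1:128592300-128592399: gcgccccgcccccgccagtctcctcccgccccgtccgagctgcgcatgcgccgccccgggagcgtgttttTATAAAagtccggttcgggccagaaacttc
Tgfb2, GRCm38.p6 chr1:186705990-186706089: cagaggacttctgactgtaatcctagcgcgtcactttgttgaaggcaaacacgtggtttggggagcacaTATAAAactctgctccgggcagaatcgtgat
Anxa1, GRCm38.p6 chr19:20390672-20390771: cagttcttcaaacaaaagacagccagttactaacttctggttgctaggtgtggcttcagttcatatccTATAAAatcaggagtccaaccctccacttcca
Cxcr4, a chemokine receptor, had 15.6 and 18.3 CPM at 48 h, against 3.20 and 4.87 CPM at 24 h (log2 change 2.10 ± 0.32, adjusted p = 0.00107). With DMSO it had 4.15 and 1.11 CPM at 48 h and 24 h, and the RA change minus the DMSO change was 0.19 on the log2 scale (adjusted p = 0.985). Anxa1, a membrane-binding annexin, had 5.44 and 5.09 CPM at 48 h, against 3 counts over both libraries at 24 h, a ratio of counts of 37.8 with a 95% interval of 12.6 to 186 (adjusted p = 0.00149). Leaving out replicate 1 of 48 h ended the call (adjusted p = 0.0552). The values of Tgfb2 are given above with the other ligands.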

How the data were processed

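RNA of F9 cells was extracted with TRIzol, made into libraries with TruSeq V2 and read as single ends of 72 bp (Genome Analyzer IIx) or 50 bp (HiSeq 2000), per the labels, which do not assign a read length to a library. Each library has a table deposited by the authors, with counts of reads for Ensembl genes and no normalization. TopHat2 2.0.7, HTSeq and DESeq on build mm9 are named in the submitters' processing notes, and strand handling is not given in the sources used here. Reads from overlapping or antisense genes, and from near-identical copies such as those of Krt8, Krt18 and class I histocompatibility genes, may therefore be shared. Each table held 36814 genes, 31841 with a symbol. Its 5 rows for reads given to no gene, 72.52 to 76.78% of all entries, were left out. ChIP files were not used here.

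Counts were fitted in edgeR 4.0.16 (R 4.3.3) with TMM, default low-count filter, robust quasi-likelihood tests, 1 term per RA time and the replicate number as a block, over replicates 1 and 2 of 0, 6, 12, 24 and 48 h (10 libraries). The other times enter to estimate the spread. P-values are two-sided and Benjamini-Hochberg adjusted over all genes tested. The comparison with DMSO used all 14 libraries and a term for the library set, read from the share of reads outside features (midpoint 55.97%). The SE of a log2 change is its size over the root of the F statistic. CPM values were scaled by TMM, and pair differences use log2 of CPM + 0.5.

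The numbers pair the libraries by a check on the data: deviations of number 1 from number 2 correlated between times across genes (r from 0.686 to 0.814 over 10 pairs of times, 0.693 between 48 h and 24 h). The number marks the same split as the library set, so paired cultures and the set cannot be told apart. Chi-squared per degree of freedom between the replicates was 40.96 at 48 h and 66.92 at 24 h, so they were not the same library deposited again. Where a gene had 0 counts at the lower time its fold is a bound, computed with 3 counts for the whole group. With 1 to 3 counts a ratio of summed counts is given, with an exact 95% interval that covers counting error only.

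The comparison and the 42 gene lists (950 of 960 entries matched) were chosen with earlier results of these data known. Named with values are the 12 largest called changes each way with at least 5 CPM and both pairs changed by over 0.5 log2, fixed genes, up to 4 called members per list, and up to 6 genes each way for the RA and DMSO difference and for reversal. Not every gene the rule allows is printed. Cubn, Tpm1 and members named without values were added after their values were seen. On simulated data with this layout (14878 genes), 67% of genes changed 2-fold and 83.7% of those changed 4-fold were recovered, and 8 unchanged genes were called. Alternatives were no block, RLE, DESeq2 1.42.0, other filters, a minimum log2 change of 1, other library choices and each library left out. Promoters were read in Python 3.11.15, and plots drawn with matplotlib 3.10.9. Some results are not reported here.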

Additional observations from a re-analysis of the deposited data

Results flagged for a closer look

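The direct test of whether the change at 48 h against 24 h differed between RA and DMSO called 10 genes. Each DMSO time is 1 library, so the spread of this test comes from the other groups, and it called 0 genes without the term for the library set and 2 to 33 with one RA library left out. The difference in log2 change, RA minus DMSO, was 5.70 ± 0.94 (SE) for Fst, which encodes the activin antagonist follistatin, 4.42 ± 0.64 for Igf2, 4.36 ± 0.71 for Clic5, 2.79 ± 0.35 for Peg3, 2.48 ± 0.36 for Lamb1, 2.07 ± 0.28 for Lama1 and 1.73 ± 0.28 for Tpm1. It was -2.85 ± 0.46 for Stmn3, -2.71 ± 0.43 for Cpne5 and -2.28 ± 0.37 for Kyat3. Adjusted p-values in edgeR's quasi-likelihood test lay between 0.0246 for Peg3 and 0.0488 for Fst, and all 10 genes were also called late with RA alone. Stmn3, a tubulin-binding stathmin, had 5.64 and 3.92 CPM at 48 h of RA, against 55.3 and 22.7 CPM at 24 h, and 21.1 and 22.6 CPM with DMSO at 48 h and 24 h. Kyat3, a kynurenine aminotransferase, had 24.6 and 18.0 CPM at 48 h of RA, against 107 and 60.5 CPM at 24 h, and 70.8 and 55.6 CPM with DMSO at 48 h and 24 h. Clic5, a chloride channel family member, had 64.2 and 42.0 CPM at 48 h of RA, against 9.16 and 11.5 CPM at 24 h, and 1.81 and 7.38 CPM with DMSO at 48 h and 24 h. Fst was close to absent at 24 h of RA, at 0 and 0.513 CPM, against 4.72 and 13.8 CPM at 48 h. It had 2.46 and 3.76 CPM with DMSO at 48 h and 24 h. Its mean at 0 h was 9.72 CPM, which lay between its 48 h libraries.

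The late change also differed from the early one, 12 h against 0 h, in 2040 genes by a direct test. At 0 h, where 4 libraries were available, none of the 6 genes plotted over time had a library far enough from the others to pass Dixon's test. The largest gap as a share of the range was 0.756, for Edn2.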

How the results depend on the processing

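Of the calls at 48 h against 24 h, the total stayed within 1.5 times of 2573 under RLE, DESeq2, no low-count filter, a minimum of 1 CPM, the 4 libraries alone and all 14 libraries with the set term, and kept more increases than decreases in each. It fell to 33 without the replicate block and 1188 with a log2 change of at least 1, and lay between 1376 and 4140 with one library left out. The early count of 1481 was 151 without the block, 766 with the minimum change, and 542 to 692 with a library left out. The count for late minus early was 220 without the block and 1133 to 3160 with a library left out. The count of 10 for RA minus DMSO was 0 without the set term (680 at an unadjusted p under 0.05), 72 with no low-count filter, 5 with the CPM minimum, 105 in DESeq2, and 2 to 33 with a library left out. That comparison within the DMSO library set alone was not run as a test, since it leaves no replicate. The causes of these shifts were not tested. Of the increases, 794 to 1163 were still called with a library left out, and of the decreases 426 to 976. Counting noise limits genes with few counts at 24 h, and 2 libraries per time limit all estimates.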

Other observations

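Other lists held further calls between 48 h and 24 h of RA. Of 15 tested interferon and antigen presentation genes 4 were called higher and none lower, beside 9.63% and 7.18% of all genes tested (2 higher without replicate 1 of 48 h, and 0 without the replicate block). B2m, the invariant chain of class I histocompatibility molecules, had 24.3 and 36.1 CPM at 48 h, against 8.2 and 7.18 CPM at 24 h (log2 change 1.97 ± 0.26, adjusted p = 0.000358). H2-D1, a class I heavy chain whose family members may share reads, had 52.7 and 36.1 CPM at 48 h, against 32.0 and 18.5 CPM at 24 h (log2 change 0.86 ± 0.16, adjusted p = 0.00376). The groups did not overlap in either gene. With DMSO, B2m had 2.2 and 0.975 CPM and H2-D1 had 26.6 and 13.9 CPM at 48 h and 24 h, and the RA change minus the DMSO change was 0.77 for B2m (adjusted p = 0.81) and -0.09 for H2-D1 (adjusted p = 0.969). Of 16 tested immediate early genes 3 rose and 1 fell (1 higher and 0 lower without replicate 1 of 48 h). Fosl2, a member of the AP-1 family, had 31.8 and 27 CPM at 48 h, against 11.3 and 6.50 CPM at 24 h (log2 change 1.81 ± 0.25, adjusted p = 0.000502).

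In the list of amino acid stress and transport 3 of 25 tested members rose (12%) and 2 fell (8%), shares near those of all genes tested, and 9 fell without replicate 2 of 24 h. Aldh1l2, a mitochondrial enzyme of folate metabolism, had 80.6 and 68.4 CPM at 48 h, against 29.4 and 38.0 CPM at 24 h (log2 change 1.15 ± 0.17, adjusted p = 0.000937). Cth, which makes cysteine, had 299 and 300 CPM at 48 h, against 443 and 496 CPM at 24 h (log2 change -0.63 ± 0.11, adjusted p = 0.00236). Of 25 tested DNA methylation and Polycomb genes 4 rose and 6 fell (1 higher without replicate 2 of 48 h, and 3 lower without either of the 48 h libraries). Phf19, a partner of the Polycomb complex that methylates histone H3, had 5.75 and 3.51 CPM at 48 h, against 13.3 and 17.3 CPM at 24 h (log2 change -1.75 ± 0.27, adjusted p = 0.00103). The next 2 genes belong to the mesoderm and trophoblast lists, whose counts are given above. Cdh5, the cadherin of vessel walls, had 52.3 and 27.1 CPM at 48 h, against 14.8 and 4.36 CPM at 24 h (log2 change 2.19 ± 0.26, adjusted p = 0.00023). Gata3, a GATA factor of trophoblast, had 11.3 and 15.4 CPM at 48 h, against 1.70 and 4.19 CPM at 24 h (log2 change 2.25 ± 0.35, adjusted p = 0.00124).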
